A study of Homo sapiens with 17 samples.

Results

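The 8 genes described here encode folded noncoding RNAs that work inside protein complexes: the 7SK RNA (RN7SK), the 7SL RNA (RN7SL1 and RN7SL2), the RNase MRP RNA (RMRP), the RNase P RNA (RPPH1), the U3 small nucleolar RNA (SNORD3A and SNORD3B-1) and the telomerase RNA (TERC). They were chosen by name, and an eCLIP peak belonged to a gene when its midpoint lay in the gene's hg19 interval on the same strand. Of 389788 peaks in 11 libraries, 351 belonged to these genes. All 8 genes had at least 1 peak, and 87 of the gene and library combinations had one, the exception being SNORD3B-1 in the RNF219 library.

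In eCLIP, ultraviolet light links proteins to RNA in direct contact, an antibody recovers 1 protein, and the attached RNA fragments are sequenced. The cells were 293T, an established human embryonic kidney line, with no treatment in the labels other than irradiation at 254 nm with 400 mJ/cm2. The libraries were made with antibodies to AIFM1 (AIFM in the sample titles), NUMA1, RANGAP1, VIM and ZNF184 (2 replicates each) and to RNF219 (1 library). Each of the 6 proteins had 1 size-matched input, RNA from the same gel window without the antibody step, and that input served for both of its replicates. The labels name no knockout or tag and no library made with a control antibody. The value given throughout is the authors' log2 fold of eCLIP over input for a peak, so that 0 is the input level and a negative value means fewer reads in eCLIP than in input at equal depth.

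The 7SK RNA is a nuclear scaffold that holds the elongation factor P-TEFb in an inactive form. The 7SL RNA is the core of the signal recognition particle, which brings ribosomes with secretory proteins to the endoplasmic reticulum. RNase P removes the 5′ leaders of precursor tRNAs, RNase MRP and U3 act in the maturation of precursor ribosomal RNA, and TERC carries the template for telomere repeats. Apart from TERC, which is scarce in most cells, these are among the more abundant noncoding RNAs of the cell.

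In hg19, RN7SK lay at chr6:52860418-52860748 (plus strand), RN7SL1 at chr14:50053298-50053596 (plus strand) and RN7SL2 at chr14:50329268-50329567 (minus strand). RMRP lay at chr9:35657748-35658015 (minus strand), RPPH1 at chr14:20811230-20811570 (minus strand) and TERC at chr3:169482398-169482848 (minus strand). The intervals of SNORD3A, chr17:19091329-19092027, and SNORD3B-1, chr17:18965225-18967449 (both plus strand), were 699 and 2225 nt long. RefSeq on GRCh38.p14 gives 217 nt for each of these U3 genes, and where the U3 RNA lies inside the longer intervals was not analysed here. Equal distances in the SNORD3A and SNORD3B-1 intervals may therefore not be equal positions of U3. All 8 are genes of noncoding RNA with no coding part, and positions below are in nt from the 5′ end of the interval.

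Several of the RNAs have copies. RefSeq lists 5 U3 genes of 217 nt on chromosome 17 (SNORD3A, SNORD3B-1, SNORD3B-2, SNORD3C and SNORD3D) and 3 RN7SL genes of 299 nt on chromosome 14 (RN7SL1, RN7SL2 and RN7SL3). The sources used here do not give how reads that fit several copies were placed. Values for the U3 and 7SL genes are therefore uncertain as values of a single gene.

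The lists held 10682 to 63198 peaks per library, and the input was 0.534 to 4.84 times as deep as the eCLIP library. The total number of reads per library is unknown. Whole reads behind each peak were recovered from the fold and the p-value where possible, and were settled for 56 of the 351 peaks. For the other 295, among them all peaks below input, only the smallest whole numbers that give the fold are known, written as "at least". The 95% intervals (Clopper-Pearson) around a log2 fold use these reads and cover counting error only, since reads can include PCR copies.

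Most peaks in these genes had fewer reads in eCLIP than in input. Of the 351 peaks, 272 (77.5%) were below input, against 11.8% of all peaks in the 11 lists. The median log2 fold was -1.21 in the 8 genes and 1.25 over all peaks. Taking the highest peak of each gene in each library, 38 of 87 values were above input. Only SNORD3B-1 was above input in every library that had a peak in it, and TERC followed with 9 of 11.

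A peak counted as significant when its -log10 p was at least 3 and its log2 fold at least 3, which is 8-fold. By that rule 14 of the 351 peaks (3.99%) were significant, against 2.41% of all peaks. In AIFM1, 2 of 28 and 1 of 24 member peaks were significant, beside 0.216% and 0.214% of all peaks of replicates 1 and 2. In NUMA1, 1 of 34 and 1 of 28 were, beside 1.51% and 0.877% of all peaks. In RANGAP1, 1 of 38 and 1 of 36 were, beside 1.52% and 2.99%. None of the 42 RNF219 peaks in these genes was significant, beside 0.926% of that library. In VIM, 2 of 28 and 1 of 25 were, beside 5.29% and 4.5% of all peaks. In ZNF184, 1 of 32 and 3 of 36 were, beside 3.15% and 4.82%. A single peak moves these shares by several percent, and 12 of the 14 significant peaks lay in SNORD3B-1 and the other 2 in TERC.

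The opposite rule, a log2 fold of at most -1, was met by 192 of the 351 peaks (54.7%), against 7820 peaks (2.01%) over all lists. RNF219 had 37 of 42 such peaks, beside 6.23% of all its peaks. AIFM1 had 19 of 28 and 18 of 24, beside 2.64% and 2.6%. ZNF184 had 23 of 32 and 18 of 36, beside 1.26% and 1.67%. The share in the 8 genes was far above the share over all peaks in each of these libraries. RANGAP1 had 19 of 38 and 26 of 36, beside 1.44% and 1.47%. NUMA1 had 14 of 34 and 8 of 28, beside 2.02% and 0.988%. VIM had the smallest part of its member peaks at or below -1, with 5 of 28 and 5 of 25, beside 2.57% and 3.14% of all its peaks. Peaks of a gene in a library are neighbouring pieces of 1 RNA, so these counts describe the lists and are not counts of independent sites.

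**Figure D1:**
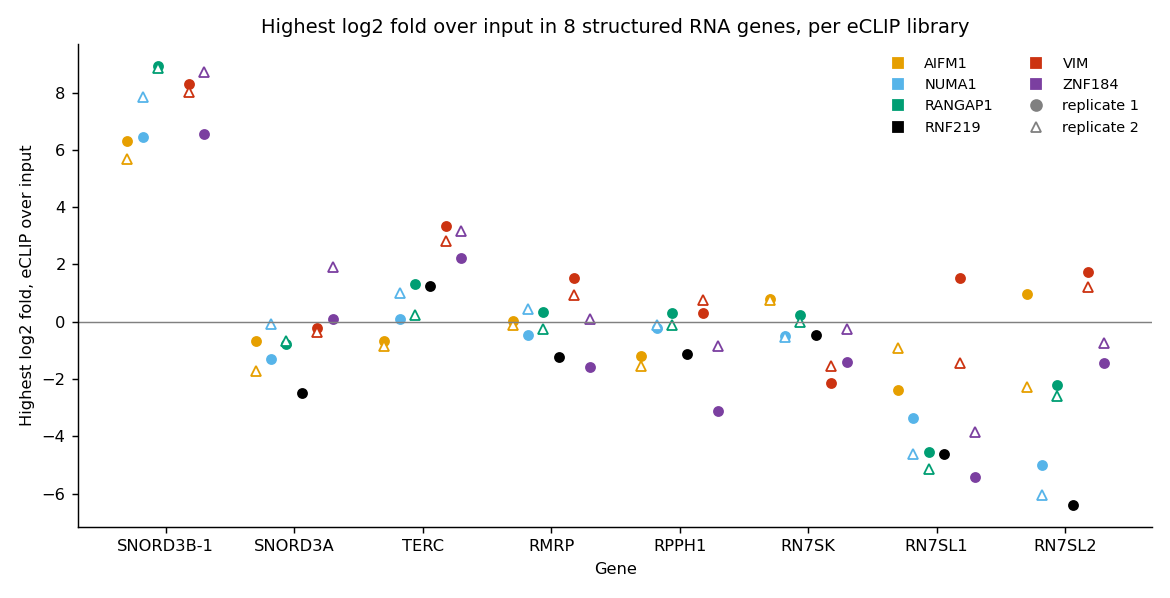
Highest log2 fold over input (vertical axis) in each of the 8 genes (horizontal axis), 1 point per eCLIP library, coloured by protein, with circles for replicate 1 and triangles for replicate 2. SNORD3B-1 stands between 5.69 and 8.93 in 10 libraries, TERC reaches 3.35, and RN7SL1 and RN7SL2 spread from 1.73 down to -6.39.

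The U3 genes gave the most contrasting pair. U3 is a box C/D small nucleolar RNA that pairs with the precursor of ribosomal RNA. SNORD3B-1 had 14 peaks, all above input, and 12 of them were significant, in 10 of 10 libraries that had a peak there. SNORD3A had 30 peaks, 24 of them below input and none significant.

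The strong SNORD3B-1 peak lay at the same place in all 10 libraries. It spanned at most nt 170 to 228 of the interval, past the RefSeq length of 217 nt when counted from the interval's start, and nt 183 to 220 were covered in each of them. In RANGAP1 it had log2 folds of 8.93 and 8.85, with coordinates chr17:18965403-18965452 in replicate 1. VIM had 8.30 and 8.01, ZNF184 6.55 and 8.72, and NUMA1 6.43 and 7.84. AIFM1 had 6.30 and 5.69, the lowest mean of the 5 proteins. The peak ranked first by log2 fold among all peaks of its list in 6 libraries, namely AIFM1 replicate 1, NUMA1 replicate 2, both RANGAP1 replicates, VIM replicate 1 and ZNF184 replicate 2. Its ranks were 2 in AIFM1 replicate 2, 4 in NUMA1 replicate 1, 6 in VIM replicate 2 and 24 in ZNF184 replicate 1.

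These folds rest on very few input reads. The RANGAP1 peaks had at least 330 and at least 259 eCLIP reads against at least 1 input read each. The VIM peaks had at least 65 and at least 79 eCLIP reads, the ZNF184 peaks at least 69 and at least 275, and the NUMA1 peaks at least 48 and at least 72, each against at least 1 input read. An input with no read at all would look the same as one with 1 read. The AIFM1 peak was better measured, with 678 eCLIP reads against 7 input reads in replicate 2 (log2 fold 5.69, 95% interval 4.64 to 7.01) and at least 453 against at least 7 in replicate 1. In RANGAP1 replicate 1 the interval ran from 6.44 to 14.2. The order of the proteins at this site therefore turns on single input reads, although every interval lay above the threshold of 3, the lowest bound being 3.89 in NUMA1 replicate 1.

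The means over replicates were 8.89 ± 0.06 for RANGAP1, 8.16 ± 0.20 for VIM, 7.63 ± 1.53 for ZNF184, 7.14 ± 0.99 for NUMA1 and 5.996 ± 0.427 for AIFM1 (SD, n = 2 each). RANGAP1 and VIM differed by more than the larger SD of the pair, as did NUMA1 and AIFM1. VIM and ZNF184, and ZNF184 and NUMA1, did not. Replicates of a protein share 1 input, so this SD, here and below, does not measure the error of that input. It cannot by itself show a difference between proteins. The counting intervals of RANGAP1 replicate 1 (6.44 to 14.2) and VIM replicate 1 (5.77 to 13.6) overlapped. Those of NUMA1 replicate 2 (5.31 to 13.2) and AIFM1 replicate 2 (4.64 to 7.01) did too. A further site at nt 55 to 93 held peaks in 3 libraries: ZNF184 replicate 2 at 5.14, ZNF184 replicate 1 at 2.45 and AIFM1 replicate 1 at 1.60. Of these, the ZNF184 replicate 2 peak was significant, with at least 23 eCLIP reads against at least 1 input read, while the AIFM1 peak had 5 eCLIP reads against 2 input reads.

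The 30 SNORD3A peaks all lay within nt 52 to 119 of its own interval, and nt 60 to 104 were covered in all 11 libraries. Whether these are other bases of U3 than those of the SNORD3B-1 peaks was not tested. ZNF184 was above input, with a highest log2 fold of 0.11 in replicate 1 and 1.90 in replicate 2. The replicate 2 peak had at least 9739 eCLIP reads against at least 3989 input reads (95% interval 1.85 to 1.95). The other 9 libraries were below input at every peak. Their highest values were -0.20 and -0.37 in VIM, -1.29 and -0.09 in NUMA1, -0.77 and -0.68 in RANGAP1, -0.69 and -1.71 in AIFM1, and -2.48 in RNF219. ZNF184 (1.005 ± 1.27, SD, n = 2) was above VIM by 1.29, just over the larger SD. The SNORD3A peaks had between at least 77 and at least 8661 input reads, where the strong SNORD3B-1 peak had at least 1 to 7.

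**Figure D2:**
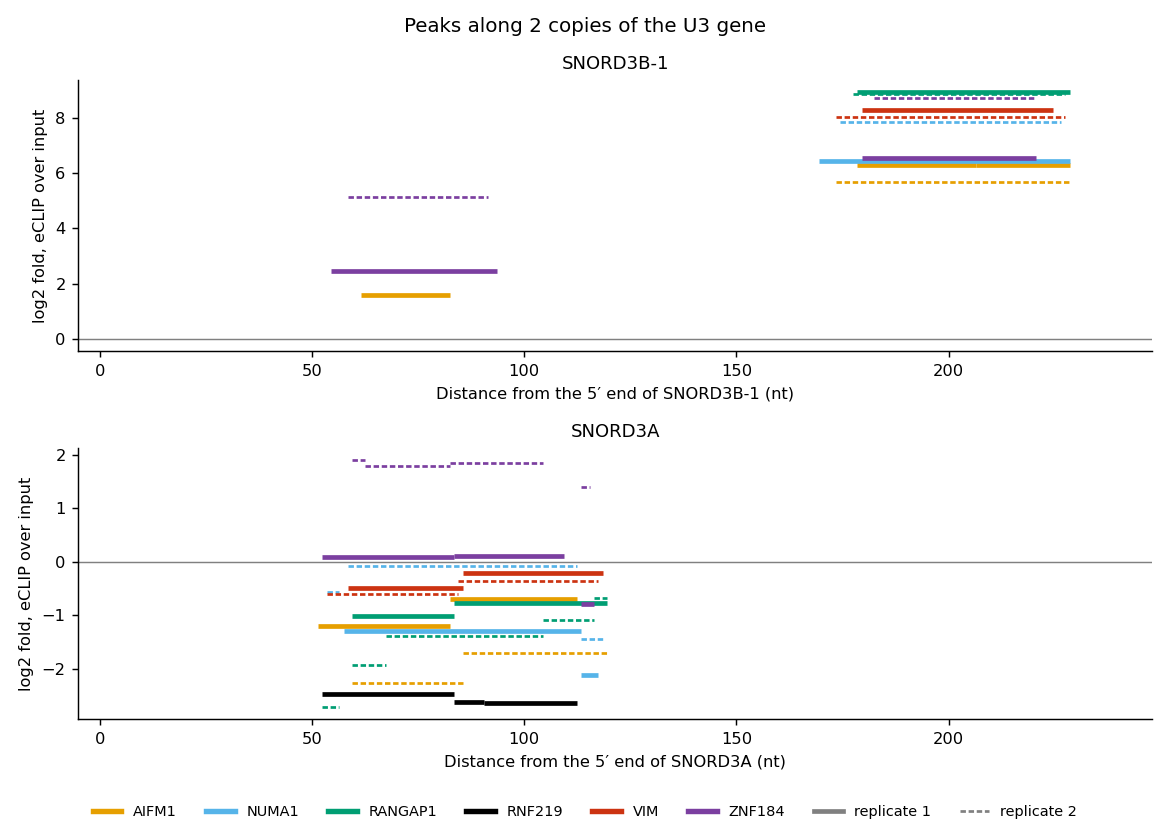
Peaks along the first part of the SNORD3B-1 (top) and SNORD3A (bottom) intervals, with distance from the 5′ end in nt on the horizontal axis and log2 fold over input on the vertical axis; each line is 1 peak, coloured by protein, solid for replicate 1 and dashed for replicate 2. The SNORD3B-1 peaks of 10 libraries pile up around nt 183 to 220, and the SNORD3A peaks lie at nt 52 to 119 with all but ZNF184 below 0.

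TERC, the template RNA of telomerase, was above input in 9 of 11 libraries and carried the other 2 significant peaks. VIM and ZNF184 had the highest folds, at different positions along the RNA. In VIM the highest peak lay at nt 188 to 238 (chr3:169482611-169482661) in replicate 1, with a log2 fold of 3.35 from 114 eCLIP reads and 54 input reads (95% interval 2.87 to 3.85). In VIM replicate 2 it lay at nt 189 to 240, with 2.81 from 116 and 54 reads (2.34 to 3.31). The VIM replicate 1 peak was significant and the replicate 2 peak fell short of the fold threshold. VIM was also above input near the 3′ end, with 2.48 at nt 355 to 413 and 1.88 at nt 361 to 416.

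In ZNF184 the highest TERC peaks lay towards the 5′ end. Replicate 2 had 3.17 at nt 44 to 85, from 159 eCLIP reads and 27 input reads (95% interval 2.58 to 3.82), and 2.76 at nt 111 to 114. Replicate 1 had 2.23 at nt 52 to 62, from 62 and 18 reads (1.45 to 3.07). The replicate 2 peak at nt 44 to 85 was significant, and the replicate 1 peak inside it was not. RANGAP1 replicate 1 was the remaining library with a peak before nt 150, with 1.32 at nt 19 to 42 from 44 and 26 reads.

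The stretch from nt 197 to 230 was covered in 10 libraries and allows the same bases to be compared. There VIM had 3.35 and 2.81, ZNF184 0.03 and 0.81, and RANGAP1 0.15 and -0.15. NUMA1 had -1.05 and 0.0028, and AIFM1 had -0.66 and -0.85. Both VIM replicates were above the other 8 libraries over these bases. RNF219 had no peak there. Its peaks lay from nt 371 on, at -3.24, -2.39 and -0.04, and at 1.26 over nt 438 to 451 at the 3′ end, from 202 eCLIP reads and 59 input reads.

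By the mean of the highest values, VIM (3.08 ± 0.38) stood first and ZNF184 (2.70 ± 0.66) next, which did not differ beyond the larger SD (n = 2 each). ZNF184 was above RNF219 (1.26, 1 library) by more than its SD. RNF219 and RANGAP1 (0.78 ± 0.76) did not differ beyond the larger SD, nor did RANGAP1 and NUMA1 (0.54 ± 0.65). AIFM1 (-0.75 ± 0.13) was last and below NUMA1 by more than the larger SD. This order is not one of the same bases. Over nt 197 to 230, NUMA1 replicate 1 (-1.05) was below both AIFM1 values (-0.66 and -0.85), and NUMA1 replicate 2 (0.0028) was above them. By the mean over all peaks weighted by peak length, RNF219 (-1.51, 1 library) was below AIFM1 (-1.09 ± 0.17). Set among all peaks of the same library, the VIM TERC peaks were not extreme: they exceeded 80.1% and 70.4% of the peaks in their lists, and were 1.08 and 0.62 above the library medians of 2.27 and 2.20. The ZNF184 peaks exceeded 80.0% and 92.2% of theirs and were 1.01 and 1.88 above the medians, so that on this scale VIM was not first.

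**Figure D3:**
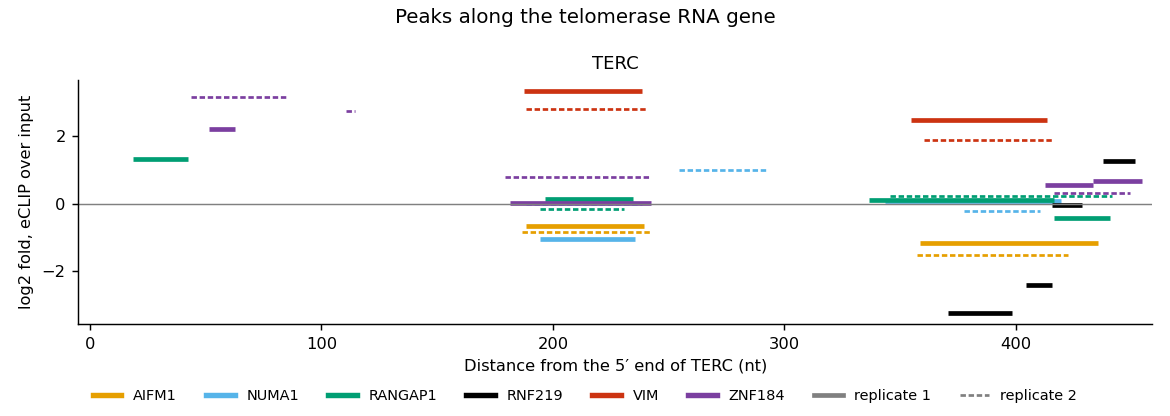
Peaks along TERC, with distance from the 5′ end in nt on the horizontal axis and log2 fold over input on the vertical axis; each line is 1 peak, coloured by protein, solid for replicate 1 and dashed for replicate 2. VIM leads at nt 188 to 240 and again near nt 355 to 416, ZNF184 leads at nt 44 to 114, and AIFM1 is below 0 throughout.

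The RNA parts of the related ribonucleoproteins RNase MRP and RNase P were mostly near or below input. The exceptions were VIM peaks on RMRP. RMRP had 51 peaks, of which 17 were above input and none was significant. VIM was highest, at 1.52 in replicate 1 (nt 220 to 238, at least 256 eCLIP reads against at least 433 input reads) and 0.93 in replicate 2 (nt 6 to 32, 1143 against 1970 reads, 95% interval 0.82 to 1.03). At the 5′ end VIM replicate 1 had 1.47 over nt 4 to 32, the same stretch as the replicate 2 peak, so that this region was above input in both. No other protein had a peak that close to the 5′ end of RMRP.

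Over nt 60 to 108, the stretch of RMRP covered in all 11 libraries, VIM was no longer apart, with 0.16 and -0.05. NUMA1 had -0.50 and 0.32 there, RANGAP1 0.25 and -0.35, and AIFM1 -0.0033 and -0.42. ZNF184 had -1.76 and -0.14, and RNF219 -1.69. In NUMA1, RANGAP1 and VIM the replicates fell on either side of input. The order by the highest peak was VIM (1.22 ± 0.42), RANGAP1 (0.05 ± 0.42), NUMA1 (-0.01 ± 0.65), AIFM1 (-0.05 ± 0.09), ZNF184 (-0.74 ± 1.18) and RNF219 (-1.24, 1 library). VIM was above RANGAP1 by more than the larger SD, and no other neighbours in that order differed beyond it.

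RPPH1 had the most peaks of the 8 genes, 150, spread over nearly its whole length of 341 nt. Of these, 137 were below input, 103 were at or below -1 and none was significant. VIM had the highest values, 0.30 (204 eCLIP reads against 802 input reads) and 0.76 (477 against 922), and RANGAP1 followed with 0.29 and -0.12. NUMA1 had -0.22 and -0.10, RNF219 -1.14, AIFM1 -1.19 and -1.53, and ZNF184 -3.13 and -0.86. Within ZNF184 replicate 1 the RPPH1 peaks went down to -4.93. VIM (0.53 ± 0.33) was above RANGAP1 (0.08 ± 0.29) by more than the larger SD, and NUMA1 (-0.16 ± 0.08) was above RNF219, while RNF219, AIFM1 (-1.36 ± 0.24) and ZNF184 (-1.997 ± 1.60) did not differ from their neighbours beyond it. Relative to the library median VIM no longer stood above RANGAP1. VIM was at -1.98 and -1.44 and RANGAP1 at -0.95 and -1.54, so that their values overlapped.

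Along RPPH1 the fold was higher at the 5′ end than at the 3′ end in most libraries. The mean over covered bases was higher in nt 1 to 113 than in nt 228 to 341 in 9 of 11 libraries, with a median difference of 0.65 on the log2 scale. RANGAP1 had -0.28 and -0.63 in the 5′ part, against -1.53 and -1.99 in the 3′ part. NUMA1 had -0.37 and -0.17, against -0.77 and -1.58. RNF219 ran the other way, with -2.65 in the 5′ part and -1.99 in the 3′ part, and ZNF184 replicate 2 had -1.85 and -1.84. The 3′ part of VIM rests on 6 covered bases in each replicate.

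**Figure D4:**
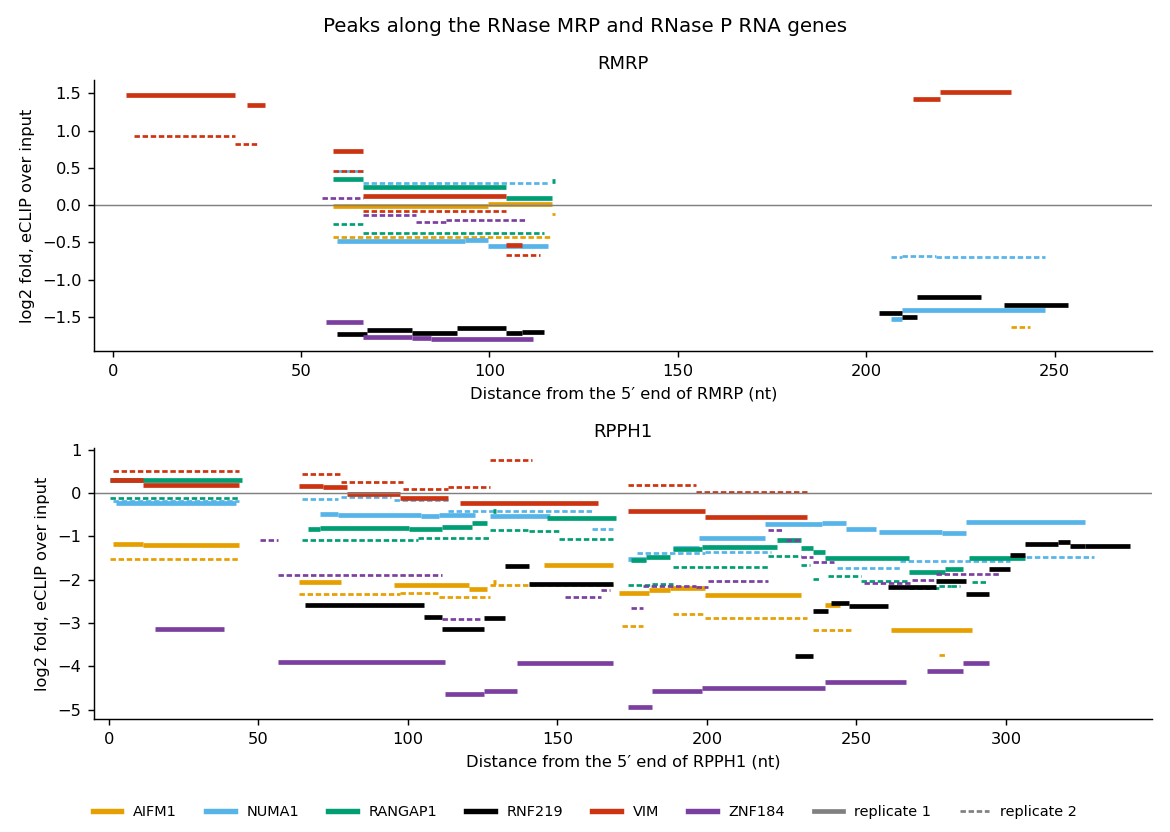
Peaks along RMRP (top) and RPPH1 (bottom), with distance from the 5′ end in nt on the horizontal axis and log2 fold over input on the vertical axis; each line is 1 peak, coloured by protein, solid for replicate 1 and dashed for replicate 2. VIM is above 0 at nt 4 to 40 of RMRP, and on RPPH1 the ZNF184 replicate 1 peaks lie lowest, down to -4.93.

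RN7SK, the scaffold of inactive P-TEFb, showed a 5′ site and a 3′ site. The 3′ site, nt 250 to 327, was covered and below input in all 11 libraries. The means there were -0.50 and -0.57 in NUMA1, -0.55 in RNF219, -1.49 and -0.34 in ZNF184, -1.52 and -1.76 in RANGAP1, -2.16 and -1.57 in VIM, and -2.73 and -2.48 in AIFM1. A peak at the 5′ site, within nt 76 to 110, was listed in AIFM1 and RANGAP1 and in no other library. AIFM1 was above input there, with 0.78 in replicate 1 (353 eCLIP reads against 249 input reads, 95% interval 0.55 to 1.02) and 0.76 in replicate 2 (785 against 248, 0.55 to 0.97). RANGAP1 had 0.22 (1418 against 1797, 0.12 to 0.32) and 0.0010 (at least 1016 against at least 1805, -0.11 to 0.11).

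In AIFM1 the 5′ and 3′ sites of RN7SK thus stood on opposite sides of input, in both replicates. AIFM1 was the highest of the proteins by its highest peak (0.77 ± 0.02, n = 2) and the lowest at the 3′ site. The order by the highest peak went on with RANGAP1 (0.11 ± 0.15), RNF219 (-0.48), NUMA1 (-0.51 ± 0.03), ZNF184 (-0.84 ± 0.82) and VIM (-1.84 ± 0.44). All neighbours in it differed by more than the larger SD except NUMA1 and ZNF184. For RNF219, which is 1 library with no SD, the difference from NUMA1 was 0.033 against the NUMA1 SD of 0.027. At the 3′ site NUMA1 replicate 1 (-0.50) was above RNF219 (-0.55), so no difference between RNF219 and NUMA1 is shown. The RN7SK values of AIFM1 and RANGAP1 come from the 5′ site and those of the others from the 3′ site, so this order is not one of the same bases.

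The 7SL genes had the lowest folds of the set. RN7SL1 had 19 peaks, 18 of them below input. At nt 252 to 277, covered in all 11 libraries, AIFM1 had -2.40 and -3.17, NUMA1 -4.74 and -4.61, and RANGAP1 -4.54 and -5.15. RNF219 had -4.60, VIM -4.68 and -4.41, and ZNF184 -5.42 and -3.84. AIFM1 was thus nearest to input at these bases, in both replicates, and the ZNF184 replicate 1 peak was the lowest of all 63198 in its list.

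The exception on RN7SL1 was a VIM replicate 1 peak at nt 4 to 43, with a log2 fold of 1.52 from 26 eCLIP reads and 44 input reads (95% interval 0.76 to 2.25). VIM replicate 2 had no peak there, and its highest value on RN7SL1 was -1.44 at nt 290 to 297. AIFM1 replicate 2 had a short peak at nt 28 to 42, at -0.90, from at least 1 eCLIP read and at least 1 input read (interval -7.20 to 5.39). The VIM mean on RN7SL1, 0.04 ± 2.09 (n = 2), therefore describes replicates that differ in which bases were measured.

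RN7SL2 had 21 peaks, 17 of them below input. VIM was above input near the 5′ end in both replicates, with 1.73 at nt 76 to 114 (24 eCLIP reads against 35 input reads, 95% interval 0.92 to 2.52) and 1.20 at nt 80 to 97 (14 against 20, 0.10 to 2.25). VIM replicate 2 also had 0.97 over the first 31 nt. AIFM1 replicate 1 had 0.98 at nt 71 to 98 from 13 and 8 reads, with an interval that includes 0 (-0.40 to 2.46), and ZNF184 had -1.42 and -0.73 at about the same place. From nt 148 on, every RN7SL2 peak was below input. The lowest were -6.39 in RNF219 (at least 8 eCLIP reads against at least 471 input reads), -6.20 in VIM replicate 2 and -6.11 in NUMA1 replicate 1.

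By its highest peak, VIM (1.46 ± 0.38) stood first on RN7SL2, and it did not differ from AIFM1 (-0.66 ± 2.32) beyond the larger SD. ZNF184 (-1.08 ± 0.49) was above RANGAP1 (-2.40 ± 0.26), RANGAP1 above NUMA1 (-5.53 ± 0.74), and NUMA1 above RNF219 (-6.39), each by more than the larger SD. This order is not one of the same bases. The peaks lay at nt 77 to 102 for ZNF184, nt 148 to 161 for RANGAP1 and nt 151 to 274 for the others. Over 25 bases within nt 236 to 272, ZNF184 replicate 2 had -3.45, RANGAP1 replicate 1 -4.97, NUMA1 -6.11 and -6.05, and RNF219 -6.39. RANGAP1 replicate 2 had -5.98 at nt 236 to 264, near the NUMA1 values, and ZNF184 replicate 1 had no peak there. On RN7SL1, AIFM1 (-1.65 ± 1.06) was above NUMA1 (-3.99 ± 0.88), and NUMA1, RNF219, ZNF184 and RANGAP1 did not differ from their neighbours in that order beyond the larger SD. These means also mix different bases. The AIFM1 replicate 2 value is the peak at nt 28 to 42 with at least 1 input read, and that of NUMA1 replicate 1 lay at nt 160 to 187. Over nt 252 to 277, AIFM1 (-2.40 and -3.17) was still above NUMA1 (-4.74 and -4.61). Where the 5′ and 3′ parts of a 7SL gene were both covered, the 5′ part had the higher mean in 2 of 2 libraries on RN7SL1 and in 4 of 4 on RN7SL2.

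**Figure D5:**
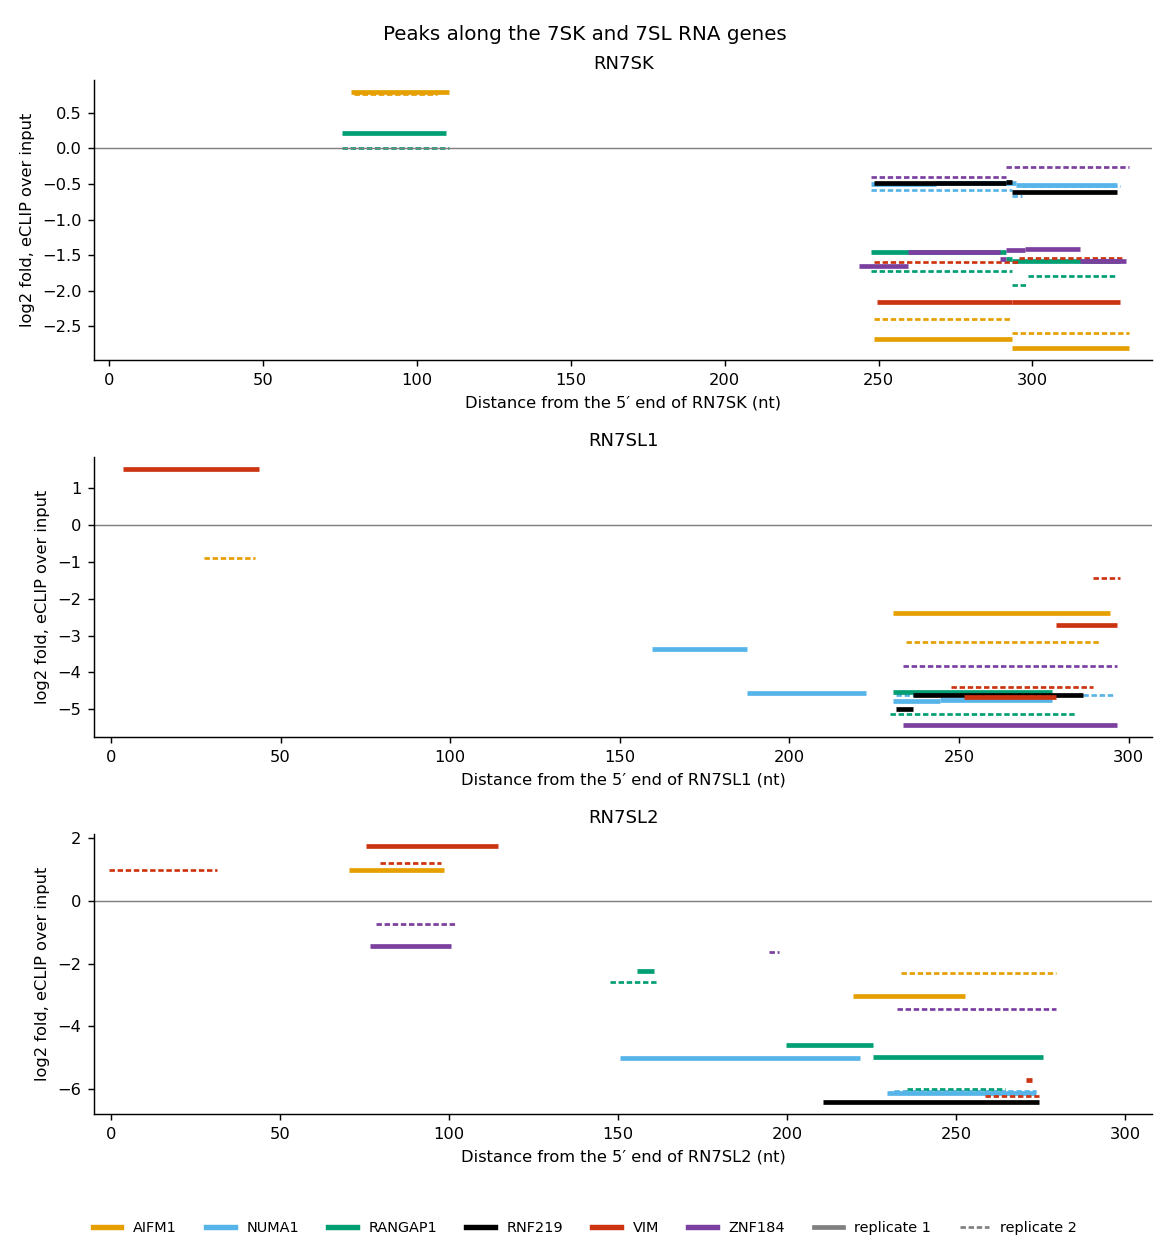
Peaks along RN7SK (top), RN7SL1 (middle) and RN7SL2 (bottom), with distance from the 5′ end in nt on the horizontal axis and log2 fold over input on the vertical axis; each line is 1 peak, coloured by protein, solid for replicate 1 and dashed for replicate 2. AIFM1 and RANGAP1 alone have a 5′ peak on RN7SK, and the 3′ peaks of all 3 genes lie below 0.

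To compare proteins, the highest log2 fold of a gene in the libraries of 1 protein was set against that in the other eCLIP libraries by a 2-sided exact permutation test, 47 tests in all with Benjamini-Hochberg adjustment. With 55 ways to choose 2 of 11 libraries the smallest p is 0.0182 (0.0222 with 10 libraries, and 0.0909 for the single RNF219 library). Libraries were exchanged singly, although the replicates of a protein share 1 input and are not independent. With these smallest p-values no adjusted p could fall under 0.05, so that outcome was fixed in advance. The smallest adjusted p was 0.261, and 6 tests had an unadjusted p under 0.05. VIM was lower than the other libraries on RN7SK (-1.84 ± 0.44, n = 2, against -0.16 ± 0.69, n = 9; exact p = 0.0182). It was higher on RMRP (1.22 ± 0.42 against -0.30 ± 0.69; exact p = 0.0364) and on RN7SL1 (0.04 ± 2.09 against -3.87 ± 1.45; exact p = 0.0364). The adjusted p was 0.261 for RN7SK and 0.285 for the other two. The RN7SL1 difference comes from peaks on different bases: over nt 252 to 277, covered in all 11 libraries, VIM (-4.68 and -4.41) lay within the range of the other libraries (-5.42 to -2.40). The same held for RN7SK and RMRP. Over nt 250 to 327 of RN7SK, VIM (-2.16 and -1.57) lay within the range of the other libraries (-2.73 to -0.34). Over nt 60 to 108 of RMRP, VIM (0.16 and -0.05) lay within theirs (-1.76 to 0.32).

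AIFM1 was lower than the other libraries on TERC (-0.75 ± 0.13, n = 2, against 1.72 ± 1.22, n = 9; exact p = 0.0182) and on SNORD3B-1 (5.996 ± 0.427, n = 2, against 7.95 ± 0.98, n = 8; exact p = 0.0222). ZNF184 was higher on SNORD3A (1.005 ± 1.27, n = 2, against -0.92 ± 0.78, n = 9; exact p = 0.0182). The adjusted p of each was 0.261. The TERC peaks compared lie partly on different bases. Over nt 197 to 230, covered in 10 libraries, AIFM1 (-0.66 and -0.85) lay within the range of the other libraries (-1.05 to 3.35). Only NUMA1 replicate 1 (-1.05) was below AIFM1 there, and all the others were above both AIFM1 values. On SNORD3B-1 the other 8 libraries rest on at least 1 input read each, and with the library median subtracted the AIFM1 difference was -1.34 in place of -1.96 (exact p = 0.111). VIM on TERC, with the highest mean of any protein there (3.08 ± 0.38, n = 2, against 0.87 ± 1.31, n = 9), had an exact p of 0.0545. Proteins were set against different inputs, so a difference between proteins and a difference between their inputs cannot be told apart.

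VIM also had the highest library medians over all peaks, 2.27 and 2.20, against 0.68 to 1.42 in the other libraries. With the library median subtracted, the VIM difference from the other libraries on RMRP was 0.49 in place of 1.52 (exact p = 0.382), while on RN7SK it was -2.72 in place of -1.69. With the mean over all peaks of the gene in place of the highest, weighted by peak length, the VIM difference was 1.54 on RN7SL1 in place of 3.91 (exact p = 0.109) and -0.85 on RN7SK (exact p = 0.109). Single libraries set part of 2 differences: that of VIM on RN7SL1 was 2.43 without VIM replicate 1, and that of ZNF184 on SNORD3A was 1.03 without ZNF184 replicate 2, in place of 1.92.

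Over bases covered in both replicates, the mean log2 fold had the same sign in 38 of 40 gene and protein pairs and differed by less than 1 in 31, with a median difference of 0.52 regardless of sign. Single bases differed by up to 3.64, on RPPH1 in ZNF184. Because both replicates share their input, this agreement is not that of independent ratios. The sign also went partly with the gene. On bases covered in the most libraries, RN7SK and RN7SL1 were below input in 11 of 11 libraries and SNORD3B-1 was above it in 10 of 10. On RMRP and TERC, 8 of 11 and 4 of 10 were below. How often libraries of different proteins share a sign was not tested. ZNF184 stood apart: replicate 2 was higher than replicate 1 in 8 of 8 genes, by 0.45 on TERC up to 2.41 on SNORD3B-1, and by 1 or more in 6. The library medians of all peaks differed by 0.07. On RPPH1 the ZNF184 means over shared bases were -4.24 in replicate 1 and -2.01 in replicate 2, and on RMRP -1.75 and -0.13. Replicate 2 was higher in 6 of 8 genes in NUMA1, in 2 of 8 in AIFM1 and in VIM, and in 1 of 8 in RANGAP1.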

How the data were processed

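eCLIP of 6 proteins in 293T cells gave 11 peak lists, 1 per library and none pooled; the 6 inputs enter only through the ratios. Per the labels' protocols, lysates were treated with RNase I and RNA was taken from a gel window reaching 75 kDa above the protein. Per the submitters' processing notes, cutadapt, STAR, GATK, Picard and SAMtools were used on build hg19 (versions unstated). For the peak caller, duplicates and reads shared between copies, the treatment was not given in the sources used. The authors deposited for each peak a -log10 p against the size-matched input, unadjusted as far as the lists show, and a log2 fold over that input. The deposited -log10 p was 0 for every peak below input and stopped at 15.7 for small read numbers (310 peaks) and at 400 otherwise. The submitters call the replicates biological and say no more, so the permutation p-values measure a spread between libraries that may be technical. The deposited p sets the reads of 1 library against its input and measures no such spread. The tests counted libraries as independent units, although the replicates of a protein share 1 input. Their p-values are therefore not those of a test over 6 proteins.

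Peaks were assigned by midpoint and strand with Python 3.11.15, pandas 2.3.3 and scipy 1.17.1, after tests on simulated data. Folds were ratios of whole reads times 1 constant per library, solved to within 1e-12. For the constant, p was matched to within 0.005 on the log10 scale. For the reads of a peak the margin was at least 0.005 and grew in proportion to larger -log10 p values. In 7 member peaks with identical bounds in both replicates, the recovered input reads were equal in 4 and whole multiples of each other in all 7. The highest log2 fold of a gene in a library is the value compared; the tests need every library of the protein and at least 5 others. All 8 genes are named, with the copies of SNORD3A and RN7SL1, and each gene's highest peak is placed. The members, lists and thresholds were chosen with earlier results of these data known, and the rule of -1, the 5′ and 3′ parts and the comparison over shared bases after their values were seen. No set of further small RNA genes was analysed here.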

Additional observations from a re-analysis of the deposited data

Results flagged for a closer look

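On 5 genes both replicates of 1 protein were above input at the highest peak while both replicates of another were below it. The differences in mean log2 fold were not tested between the 2 proteins, and each protein had its own input. On RN7SL2 the difference was 7.00, with VIM at 1.46 ± 0.38 and NUMA1 at -5.53 ± 0.74 (SD, n = 2 each, here and below). On TERC it was 3.84, with VIM at 3.08 ± 0.38 and AIFM1 at -0.75 ± 0.13. On RN7SK it was 2.62, with AIFM1 at 0.77 ± 0.02 and VIM at -1.84 ± 0.44. On RN7SL2 and RN7SK the peaks compared lie on different bases, since NUMA1 has no 5′ peak on RN7SL2 and VIM none on RN7SK. On RPPH1 the difference was 2.53, with VIM at 0.53 ± 0.33 and ZNF184 at -1.997 ± 1.60. These peaks also lie on different bases, and over the bases of RPPH1 covered in all 11 libraries VIM replicate 1 was below input, at -0.08, and replicate 2 above it, at 0.19. On SNORD3A it was 2.20, with ZNF184 at 1.005 ± 1.27 and AIFM1 at -1.20 ± 0.72. With 1 or 2 libraries per protein, no library could be tested as an outlier.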

How the results depend on the processing

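At a log2 fold of at least 2 in place of 3, VIM replicate 2 and ZNF184 replicate 1 each had 2 significant peaks in place of 1. VIM replicate 1 had 3 in place of 2, and ZNF184 replicate 2 had 4 in place of 3. VIM and ZNF184 each had 2 genes significant in both replicates in place of 1, TERC joining SNORD3B-1. At a log2 fold of at least 4, VIM replicate 1 had 1 in place of 2 and ZNF184 replicate 2 had 2 in place of 3. No TERC peak was then significant, the highest being 3.35. With abutting peaks merged, AIFM1 replicate 1 had 1 in place of 2. A -log10 p of at least 5 and other ways of placing peaks left these counts within 1.5 times. Of 87 gene and library values, 38 were above input by the highest peak, 24 by the length-weighted mean, 25 by the median and 18 after subtraction of the library median. The 6 tests with an unadjusted p under 0.05 became 3 with the length-weighted mean and 4 to 8 when 1 library at a time was left out. No setting gave an adjusted p under 0.05. That says nothing of stability, since a smallest p of 0.0182 over 47 tests leaves no way to pass. For replicate pairing, the deviations of same-numbered replicates of different proteins correlated from -0.43 to 0.48 over genes (median 0.26), above 0.1 in 6 of 10 pairs of proteins and not in all, so the numbers were not taken to pair the libraries; permuting within this replicate block left 5 of 47 tests under 0.05, with a smallest adjusted p of 0.348. Where input reads were 1, as at the SNORD3B-1 site, counting error leaves the fold a wide interval.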
